A study of Mus musculus with 8 samples.

Results

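Acetylcholine receptors and the enzymes of acetylcholine turnover were examined in the adult mouse frontal cortex with and without HAR123. They are 10 genes of 55536 in the count table. The 10 were taken by name, 4 muscarinic receptors (Chrm1, Chrm2, Chrm3 and Chrm4), 4 nicotinic receptor subunits (Chrna4, Chrna5, Chrna7 and Chrnb2), acetylcholinesterase (Ache) and choline acetyltransferase (Chat), and each had 1 row in the table and counts in all 8 libraries. HAR123 is a conserved enhancer that changed quickly in the human lineage and lies in an intron of the human gene SMG6. In the mice, its ortholog was deleted with CRISPR-Cas9 in C57BL/6J embryos. The libraries were rRNA-depleted total RNA from frontal cortex of mice aged 8 weeks, 4 from wild-type mice (WT) and 4 from mice that lack HAR123 (HAR123-KO). The study described the WT animals as littermates, and asked which frontal cortex genes depend on HAR123 because this region takes part in cognitive flexibility. The number of founder lines, the sex of the animals and whether a library pooled animals were not given in the sources used here. The p-values therefore measure the spread between these libraries, and the deletion itself cannot be checked from counts of exons.

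Acetylcholine reaches the cortex mainly from axons of basal forebrain neurons, and it tunes attention and the switching of learned rules. Chat makes it, the vesicular transporter Slc18a3 packs it into vesicles, Ache splits it in the synaptic cleft, and the high-affinity transporter Slc5a7 takes the freed choline back into the terminal. Muscarinic receptors are slow and act through G proteins, with M1 and M3 (Chrm1, Chrm3) coupled to Gq and M2 and M4 (Chrm2, Chrm4) coupled to Gi and Go. Nicotinic receptors are fast ion channels built from 5 subunits, mostly alpha4 with beta2 (Chrna4, Chrnb2, at times with the accessory subunit Chrna5) or alpha7 alone (Chrna7) in cortex.

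Sequence just upstream of the start site is shown for 4 genes on which the comparisons turn: Chrna7 and Chrm4, the members with the largest fitted decrease and increase among those with an adjusted p-value, and the presynaptic pair Chat and Slc5a7. The sequences are from RefSeq on GRCm38.p6, read 5′ to 3′ on the strand of the gene, and bases inside exons of the GENCODE M21 annotation were left out. Capitals mark a GC box (GGGCGG, either strand) or a TATA motif (TATAAA, either strand).
Chrna7, chr7:63212570-63212776, minus strand: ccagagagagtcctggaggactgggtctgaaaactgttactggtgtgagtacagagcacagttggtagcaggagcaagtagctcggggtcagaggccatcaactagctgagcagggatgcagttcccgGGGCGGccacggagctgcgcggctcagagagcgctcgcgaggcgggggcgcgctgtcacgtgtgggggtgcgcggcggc
Chrm4, chr2:91921939-91922188, plus strand: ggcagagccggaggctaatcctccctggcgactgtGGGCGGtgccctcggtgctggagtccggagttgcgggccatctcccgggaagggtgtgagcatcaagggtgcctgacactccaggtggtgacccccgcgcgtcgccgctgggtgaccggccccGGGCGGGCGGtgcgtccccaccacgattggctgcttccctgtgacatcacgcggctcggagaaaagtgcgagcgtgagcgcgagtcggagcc
Chat, chr14:32465990-32466159, minus strand: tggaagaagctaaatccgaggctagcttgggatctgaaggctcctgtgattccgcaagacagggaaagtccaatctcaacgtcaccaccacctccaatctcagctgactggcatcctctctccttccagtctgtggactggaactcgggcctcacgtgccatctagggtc
Slc5a7, chr17:54299035-54299284, minus strand: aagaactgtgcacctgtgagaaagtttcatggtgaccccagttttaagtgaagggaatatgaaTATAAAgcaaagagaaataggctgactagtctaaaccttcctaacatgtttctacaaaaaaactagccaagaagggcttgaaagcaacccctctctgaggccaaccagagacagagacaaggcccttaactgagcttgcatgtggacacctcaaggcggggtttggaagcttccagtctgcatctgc

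The 4 stretches differ in base composition. The Chrm4 stretch was 70% G and C with 26 CpG pairs and 3 GC boxes, of which a pair overlap, and the Chrna7 stretch was 65.2% G and C with 16 CpG pairs and 1 GC box. The Chat stretch was 54.7% G and C with 5 CpG pairs and neither motif, and the Slc5a7 stretch was 45.6% G and C with 1 CpG pair and 1 TATA motif. For 9 of the 10 genes the reference held at least 1 window of 250 bases before a start site (10 windows in all, with 2 start sites for Chrna5); Chrm1 was not among them. A GC box lay in 6 of the 10 windows and in 32.7% of all 32851 windows of that length, while TATAAA lay in none of the 10 and in 12.4% of all. These are matches of letters, described for these windows only.

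Library totals ran from 13528251 to 17051001 counts, and nuclear protein-coding genes other than Lars2 received 2786320 to 3732172 of them. The ribosomal row Gm42418 took 55.1% to 58.0% of each library. The 10 cholinergic genes received 1544 to 2076 counts per library. Depth was ample for Chrm1 (630 to 881 raw counts per library) and thin for Chrna5 (7 to 16) and Chat (2 to 17). All libraries carried neuronal markers, most of them shared by cortical and striatal neurons, with 29843 to 30459 normalized counts summed over 10 neuron genes in WT and 29323 to 29687 in HAR123-KO. They also carried striatal transcripts, and 13 genes shared by both types of striatal projection neuron summed to 8888 to 9109 in WT and 11142 to 11267 in HAR123-KO. Of these 13, 11 passed the DESeq2 test, beside 1.69% of all genes tested, and all 13 were higher in every HAR123-KO library than in any WT library, beside 7.21% of genes without overlap in either direction. The marker lists were chosen with earlier results of these data known, so these counts describe the lists and test nothing. Choroid plexus markers (12 genes) summed to 99.1 to 113 in WT and 766 to 792 in HAR123-KO, and layer 6b and claustrum markers (7 genes) to 993 to 1133 and 769 to 831. Oligodendrocyte markers (8 genes) summed to 14854 to 15313 in WT and 16797 to 17148 in HAR123-KO, astrocyte markers (8 genes) to 23138 to 23865 and 21505 to 22093, endothelial markers (8 genes) to 480 to 519 and 375 to 395, upper layer markers (7 genes) to 3543 to 3704 and 3230 to 3394, deep layer markers (7 genes) to 1012 to 1134 and 1164 to 1197, and microglia markers (6 genes) to 882 to 958 and 855 to 912. All of these sums but the last separated the genotypes. A sum follows its most abundant genes, and single genes of a list could go the other way. Higher in HAR123-KO were 4 of 10 neuron, 1 of 8 astrocyte, 6 of 8 oligodendrocyte and 5 of 7 deep layer genes. So were 0 of 7 upper layer, 0 of 8 endothelial, 1 of 7 layer 6b and claustrum and 2 of 6 microglia genes. The part of these shifts in the values below was not tested, apart from the ratios given beside Chrm2, Chrm4 and Slc5a7.

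No receptor or enzyme gene among the 10 passed the test for a difference between genotypes. By DESeq2, 0 of 10 had an adjusted p-value under 0.05, whereas 215 of the 12758 genes with an adjusted p-value did (1.69%). At an unadjusted p-value under 0.05 the count was again 0, beside 8.78% of those genes. Only 8 of the 10 received an adjusted p-value; Chrna5 and Chat lay below a mean of 17.6 normalized counts, where DESeq2's filter on low values sets it aside. The tests of edgeR and limma-voom also called 0 of the 9 that they fitted, with 2 at an unadjusted p-value under 0.05 (Chrm2 and Chrna7, both lower in HAR123-KO). The share of all genes at that limit was not counted for edgeR and limma-voom, so these 2 have no background beside them. In none of the 10 did the genotypes separate without overlap, beside 7.21% of all genes whose mean reached 10 normalized counts. The 9 with such a mean had a median log2 fold change (HAR123-KO minus WT) of -0.04 and 3 were higher in HAR123-KO, where all 14464 genes at that level had a median of -0.00 and 49.6% were higher.

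**Figure D1:**
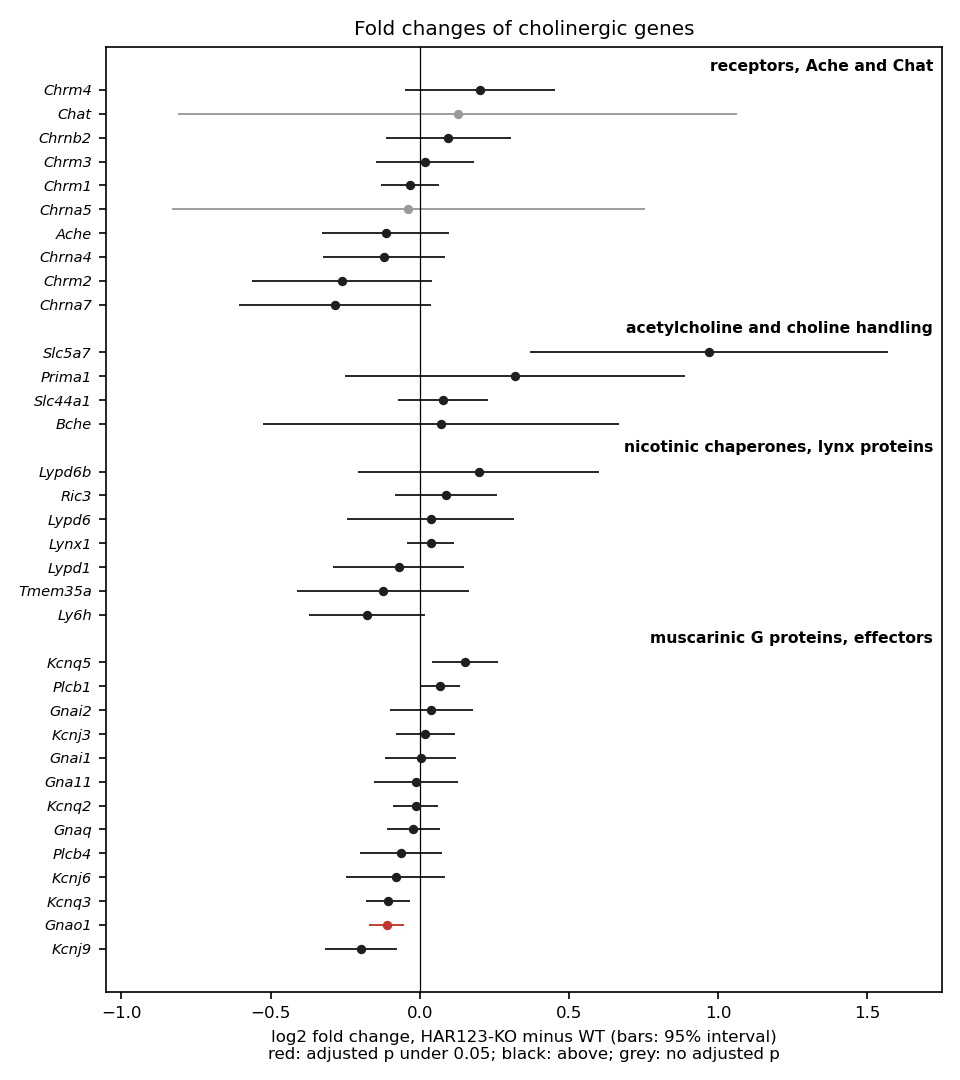
Fold changes of the 10 genes and of other cholinergic genes averaging at least 10 normalized counts, without the further receptor subunits. The x axis is the DESeq2 log2 fold change, HAR123-KO minus WT, with 95% intervals, and genes are grouped by role. All 10 intervals in the top group cross 0, Slc5a7 lies at 0.97 without passing the adjusted threshold, and Gnao1 at -0.11 is the only red point.

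Among the muscarinic receptors, Chrm1 (ENSMUSG00000032773, chr19:8663789-8683587), the main Gq-coupled receptor of cortical pyramidal neurons, had the smallest standard error of the 10 genes. Its normalized counts were 709, 794, 746 and 807 in WT replicates 1 to 4 and 765, 735, 733 and 754 in HAR123-KO replicates 1 to 4. The HAR123-KO libraries lay inside the WT range, and the WT mean of 764 ± 44.7 stood beside a HAR123-KO mean of 747 ± 15.2 (SD, n = 4). DESeq2 fitted a log2 change of -0.03 ± 0.05 (SE) with an adjusted p-value of 0.956, and as a fold the 95% interval ran from 0.913 to 1.04. Chrm3 (ENSMUSG00000046159, chr13:9875486-10360847), the other Gq-coupled member, had 265, 286, 270 and 353 in WT and 277, 281, 306 and 321 in HAR123-KO. WT replicate 4 was the highest library, WT replicates 1 and 3 were the lowest, WT replicate 2 lay among the HAR123-KO libraries, and DESeq2 fitted a log2 fold change of 0.02 ± 0.08 (SE), with a 95% interval of -0.15 to 0.18 and an adjusted p-value of 0.995.

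The Gi-coupled receptors had larger fitted differences, in opposite directions, and neither passed the test. Chrm2 (ENSMUSG00000045613, chr6:36388084-36528414), a presynaptic autoreceptor on cholinergic terminals that interneurons also carry, had 69.8, 79.3, 89.8 and 85.6 normalized counts in WT and 79.9, 64.7, 56.3 and 72.3 in HAR123-KO. Of the HAR123-KO libraries 2 lay below every WT library, and the other two lay within the WT range. The WT mean was 81.1 ± 8.70 and the HAR123-KO mean 68.3 ± 10.1 (SD, n = 4), and the fitted log2 change of -0.26 ± 0.15 (SE) had a DESeq2 adjusted p-value of 0.673 and a 95% interval of -0.56 to 0.04. Markers of cortical interneurons (10 genes) summed to 1921 to 2036 in WT and 1931 to 2026 in HAR123-KO. Of the 8 with an adjusted p-value, 0 were called by DESeq2, beside 1.69% of all genes with one. Per count of 9 marker lists in turn, the HAR123-KO mean of Chrm2 was 0.518 (indirect striatal type) to 1.11 times (layer 6b and claustrum) the WT mean. In bulk tissue, fewer cells of a type and less RNA per cell cannot be told apart.

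Chrm4 (ENSMUSG00000040495, chr2:91927249-91928688), an inhibitory receptor that is abundant in striatal projection neurons, had 96.8, 90.6, 103 and 98.4 normalized counts in WT. In HAR123-KO it had 94.2, 112, 117 and 123. Replicates 2 to 4 of HAR123-KO lay above every WT library, and replicate 1 lay among the WT values. The means were 97.1 ± 4.95 and 112 ± 12.5 (SD, n = 4), and DESeq2 fitted a log2 fold change of 0.20 ± 0.13 (SE), with a 95% interval of -0.05 to 0.45 and an adjusted p-value of 0.733. Per 1000 counts of the 13 shared striatal markers, which were higher in HAR123-KO, Chrm4 stood at 10.8 ± 0.662 for WT and at 9.97 ± 1.10 for HAR123-KO (SD, n = 4), and the ranges of 9.95 to 11.5 and 8.44 to 10.96 overlapped. Over the same 9 lists the ratio of HAR123-KO to WT for Chrm4 ran from 0.710 (indirect striatal type) to 1.52 (layer 6b and claustrum), on either side of 1. Markers of the indirect type of striatal neuron (5 genes) summed to 787 to 842 in WT and 1277 to 1331 in HAR123-KO, and those of the direct type (6 genes) to 503 to 564 and 552 to 653. Of the indirect type, Penk alone averaged 476 in WT and 823 in HAR123-KO, and Sp9 was lower (log2 fold change -0.16). Of the direct type, Drd1 (0.38), Tac1 (0.48) and Isl1 (1.13, on few counts) were higher in HAR123-KO. Pdyn (-0.14), Eya1 (-0.16) and Sfxn1 (-0.08) were lower.

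**Figure D2:**
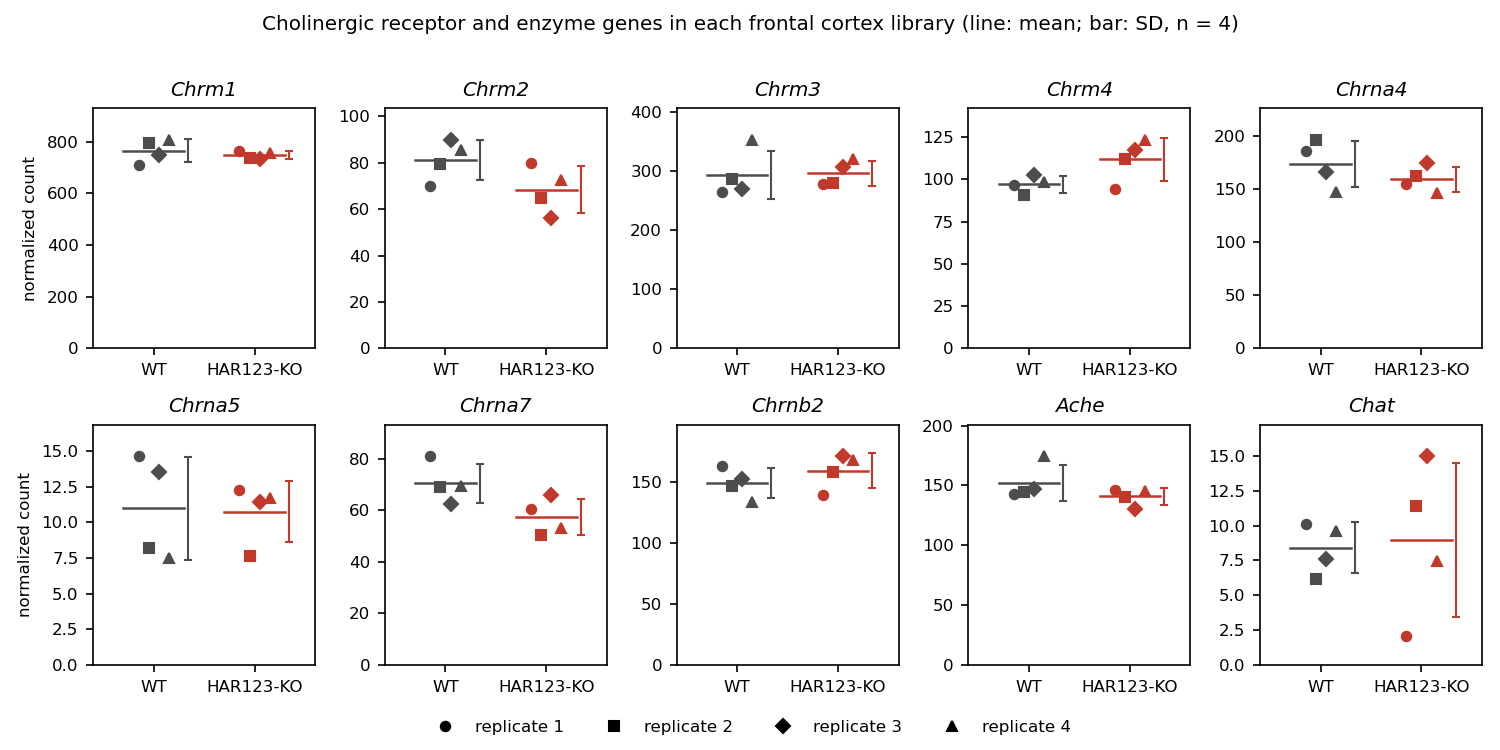
Normalized counts (y axis, starting at 0) of the 10 genes in each of the 4 WT and 4 HAR123-KO libraries, with the mean as a line and the SD as a bar; symbols give the replicate number, which names a library and pairs none. The genotypes overlap in all 10 panels, and HAR123-KO replicate 1 is the lowest HAR123-KO library for Chrm4 and Chat.

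Among the nicotinic subunits, Chrna7 (ENSMUSG00000030525, chr7:63098692-63212569), which forms calcium-permeable receptors of 1 kind of subunit, had the smallest DESeq2 p-value of the 10 genes. Its normalized counts were 81.1, 69.0, 62.7 and 69.5 in WT and 60.4, 50.4, 66.0 and 53.2 in HAR123-KO. HAR123-KO replicates 1, 2 and 4 lay below every WT library, while HAR123-KO replicate 3 exceeded WT replicate 3. The WT mean was 70.6 ± 7.65 and the HAR123-KO mean 57.5 ± 7.08 (SD, n = 4). DESeq2 fitted a log2 change of -0.28 ± 0.16 (SE) with a p-value of 0.0839 and an adjusted p-value of 0.662, and as a fold the 95% interval ran from 0.656 to 1.03.

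The subunits of the high-affinity receptor were nearer to 0. Chrna4 (ENSMUSG00000027577, chr2:181018380-181043546), the alpha subunit, had 186, 197, 166 and 148 normalized counts in WT and 155, 163, 174 and 147 in HAR123-KO, a fitted log2 change of -0.12 ± 0.10 (SE) with a 95% interval of -0.32 to 0.09 and a DESeq2 adjusted p-value of 0.871. Chrnb2 (ENSMUSG00000027950, chr3:89746195-89764632), the beta subunit, had 163, 146, 153 and 134 in WT and 139, 158, 171 and 168 in HAR123-KO, a fitted log2 change of 0.10 ± 0.11 (SE) with a 95% interval of -0.11 to 0.31 and a DESeq2 adjusted p-value of 0.919. WT replicate 4 was the lowest WT library for both subunits, and the genotypes overlapped throughout. The Chrna4 value was -0.06 without WT replicate 2 and -0.19 without WT replicate 4, and the Chrnb2 value was 0.05 without WT replicate 4, 0.06 without HAR123-KO replicate 3 and 0.15 without HAR123-KO replicate 1. Exons of the RNA-editing gene Adar on the opposite strand cover 16.3% of the exon bases of Chrnb2, and Adar held 5668 raw counts over the 8 libraries against 1246 for Chrnb2. Whether the counting used strand was not given in the sources used here, so reads in that stretch cannot be assigned; Adar itself differed by -0.06 ± 0.05 on the log2 scale (SE, with a DESeq2 adjusted p-value of 0.880).

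Chrna5 (ENSMUSG00000035594, chr9:54980880-55007779), an accessory subunit that raises the calcium permeability of alpha4 beta2 receptors and is known from layer 6 neurons, was near the limit of detection. It had 14.6, 8.24, 13.6 and 7.49 normalized counts in WT and 12.3, 7.61, 11.4 and 11.7 in HAR123-KO. Low and high libraries occurred in both genotypes, with means of 10.98 ± 3.64 and 10.8 ± 2.13 (SD, n = 4; two-sided exact permutation p = 1). At this depth the 95% interval of its fold, 0.562 to 1.69, covers large changes in both directions.

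The enzymes at the start and the end of acetylcholine's path did not pass the test either. Ache (ENSMUSG00000023328, chr5:137287519-137294466), which cholinergic and many receiving neurons make, had 143, 144, 147 and 174 normalized counts in WT and 146, 141, 130 and 146 in HAR123-KO. WT replicate 4 stood apart from the other WT libraries, which lay within the range of the HAR123-KO libraries or just above it. The fitted log2 change was -0.11 ± 0.11 (SE) with a DESeq2 adjusted p-value of 0.891, and it was -0.05 without WT replicate 4. Chat (ENSMUSG00000021919, chr14:32408203-32465989), the enzyme that defines cholinergic neurons, had 10.1, 6.18, 7.63 and 9.63 in WT and 2.05, 11.4, 14.97 and 7.44 in HAR123-KO. The HAR123-KO libraries bracketed the WT ones on both sides, with means of 8.39 ± 1.83 and 8.97 ± 5.54 (SD, n = 4; two-sided exact permutation p = 0.886). The direction is not settled, since the means and the DESeq2 fit (0.13 ± 0.48, log2, SE) put Chat higher in HAR123-KO and the difference of mean log2 values behind the permutation test, -0.13, puts it lower. The 95% interval of the Chat fold ran from 0.571 to 2.09, on 2 to 17 raw counts per library and an SD in HAR123-KO of 1.85 times the square root of the mean, where counting error alone gives about 1.

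Levels of different genes were compared as normalized counts per kb of annotated exon. In WT the order ran from Chrm1 at 118 ± 6.90 through Chrm4 at 67.4 ± 3.44 and Chrm3 at 46.9 ± 6.51 (SD, n = 4), so the top 3 places went to muscarinic receptors. Chrna4 at 34.7 ± 4.32 and Ache at 32.9 ± 3.22 followed, and their ranges over libraries overlapped. Chrnb2 at 17.8 ± 1.47, Chrna7 at 15.7 ± 1.70 and Chrm2 at 13.4 ± 1.44 formed the next group, in which each neighbour overlapped the next. Chrna5 at 3.51 ± 1.16 and Chat at 1.78 ± 0.389 were lowest, and their WT ranges did not meet, 2.40 to 4.68 against 1.31 to 2.15. All 10 genes held the same place in HAR123-KO. The annotation gives Chrm4 a single exon of 1440 bases, nearly all coding, while the windows above place its RefSeq start several kb upstream, so its level per kb rests on another kind of gene model than the rest.

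**Figure D3:**
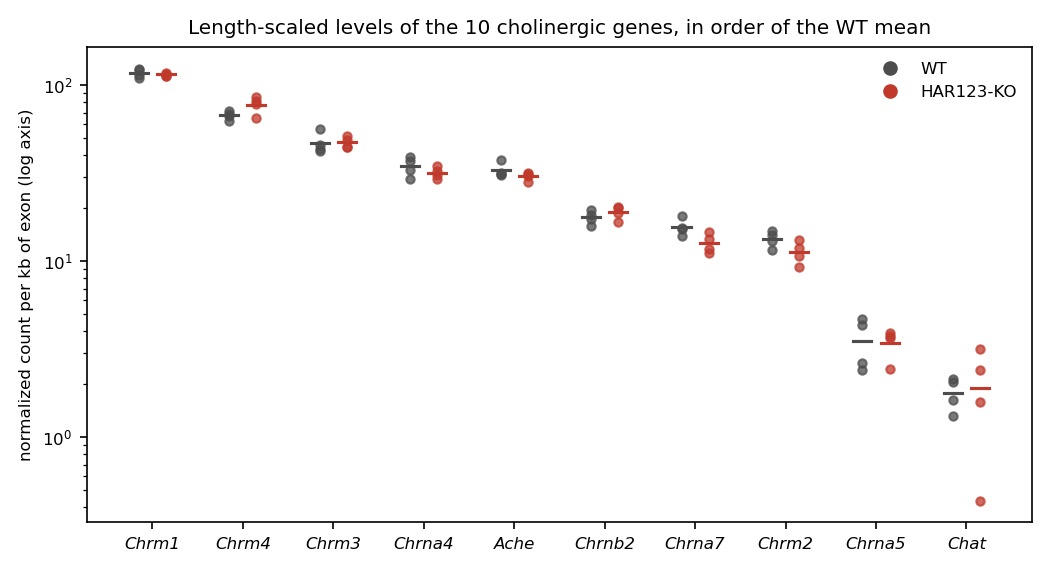
Normalized counts per kb of exon (log axis) in each WT and HAR123-KO library, with the means as short lines, for the 10 genes in order of their WT mean. Levels fall from 118 for Chrm1 to 1.78 for Chat in WT, and the order of the means is the same in HAR123-KO.

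The makeup of each receptor family was also compared, as each gene's share of the family's summed level per kb. Of the 4 muscarinic receptors, Chrm1 made up 48.0% ± 1.44 in WT libraries and 45.9% ± 2.23 in HAR123-KO libraries, Chrm4 27.5% ± 1.90 and 30.8% ± 2.45, Chrm3 19.1% ± 1.65 and 18.8% ± 0.631, and Chrm2 5.45% ± 0.447 and 4.5% ± 0.742 (SD, n = 4). For all 4 the ranges of the genotypes overlapped. Among the 4 nicotinic subunits, Chrna4 made up 48.3% ± 2.83 in WT and 47.5% ± 1.99 in HAR123-KO, and Chrnb2 24.9% ± 1.17 and 28.4% ± 2.21 (SD, n = 4). Chrna7 held 21.9% ± 2.04 and 19.0% ± 1.58, and Chrna5 4.87% ± 1.40 and 5.15% ± 1.03 (SD, n = 4). The log2 ratio of Chrna7 to Chrnb2 per kb was -0.18 ± 0.15 in the WT libraries and -0.58 ± 0.22 in the HAR123-KO libraries (SD, n = 4), and the genotypes met where HAR123-KO replicate 1 at -0.31 lay above WT replicate 3 at -0.39. Summed over the muscarinic receptors, the level per kb ran from 230 to 263 in WT and from 241 to 265 in HAR123-KO, and summed over the nicotinic subunits from 63.2 to 79.1 and from 64.7 to 73.4. These shares and ratios are given as descriptions, without a test.

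Beyond the 10 genes, 44 other cholinergic genes were followed as a list: 13 further receptor subunits, 6 genes of acetylcholine and choline handling, 8 receptor chaperones and lynx proteins, 13 muscarinic G proteins and effectors, and 4 genes of basal forebrain cholinergic neurons. Of the 24 with an adjusted p-value, 1 was called by DESeq2, lower in HAR123-KO, and 6 had an unadjusted p-value under 0.05, beside 1.69% and 8.78% of all genes with an adjusted p-value. The called gene was Gnao1, which encodes the alpha subunit of Go, a partner of M2 and M4. It had 2656, 2716, 2721 and 2608 normalized counts in WT and 2515, 2421, 2455 and 2527 in HAR123-KO. Every HAR123-KO library lay below every WT library, beside 7.21% of genes averaging at least 10 normalized counts that separated in either direction. The difference was small, -0.11 ± 0.03 on the log2 scale (SE), with a DESeq2 adjusted p-value of 0.0157. It was called in 9 of 16 alternative fits. With the replicate number as a block it was not called, at an unadjusted DESeq2 p-value of 0.0849. With library totals as size factors the log2 fold change was -0.07 and the DESeq2 adjusted p-value 0.543, and the DESeq2 adjusted p-value was 0.0831 without WT replicate 1, 0.177 without WT replicate 2, 0.0940 without WT replicate 3, 0.191 without HAR123-KO replicate 2 and 0.138 without HAR123-KO replicate 3.

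Among genes whose proteins act on the presynaptic side, the genotypes did not overlap for Slc5a7, whose choline uptake limits the rate of acetylcholine synthesis. Which cells supplied the Slc5a7 reads was not tested, and counts from bulk tissue cannot place them in cholinergic terminals. Slc5a7 had 19.1, 14.4, 9.32 and 11.8 normalized counts in WT and 23.5, 26.6, 26.4 and 28.7 in HAR123-KO. All 4 HAR123-KO libraries lay above all 4 WT libraries. The means were 13.7 ± 4.20 and 26.3 ± 2.12 (SD, n = 4), and the fitted log2 change was 0.97 ± 0.31 (SE; 95% interval 0.37 to 1.57). It missed the threshold by DESeq2 (adjusted p = 0.0781) and passed it by edgeR (adjusted p = 0.0234) and limma-voom (adjusted p = 0.0290), the only 2 of 16 alternative fits that called it. The adjusted p-value was 0.131 with at least 10 counts in 4 libraries, 0.172 without the independent filter, and 0.0846 to 0.263 in the 4 fits without 1 library that gave one (all by DESeq2). The other presynaptic genes overlapped between genotypes. Slc18a3, the vesicular transporter, lies within the span of Chat on the same strand (chr14:32462438-32464850) and shares no exon base with it. Slc18a3 had 3.38, 9.27, 5.08 and 6.42 normalized counts in WT and 4.10, 8.56, 6.16 and 7.44 in HAR123-KO, few reads in either genotype, as for Chat.

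Per 1000 counts of the 13 shared striatal markers, Slc5a7 stood at 1.53 ± 0.472 for WT and at 2.35 ± 0.182 for HAR123-KO (SD, n = 4), with ranges of 1.05 to 2.15 and 2.11 to 2.55. Per 1000 counts of the markers of the indirect type it stood at 16.8 ± 4.76 and 20.1 ± 1.62, and per 1000 of the direct type at 25.4 ± 9.08 and 43.4 ± 6.73 (SD, n = 4), and those ranges overlapped as well. The ratio of HAR123-KO to WT ran from 1.196 to 2.57 over 9 marker lists. The ranges overlapped for the 3 striatal lists and the basal forebrain list, and did not for the neuron, interneuron (ratio 1.91), upper layer (2.10), deep layer (1.76) and layer 6b lists (2.57). The 4 basal forebrain cholinergic genes summed to 7.63 to 14.4 in WT and 4.75 to 21.3 in HAR123-KO, and none had enough counts for an adjusted p-value.

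**Figure D4:**
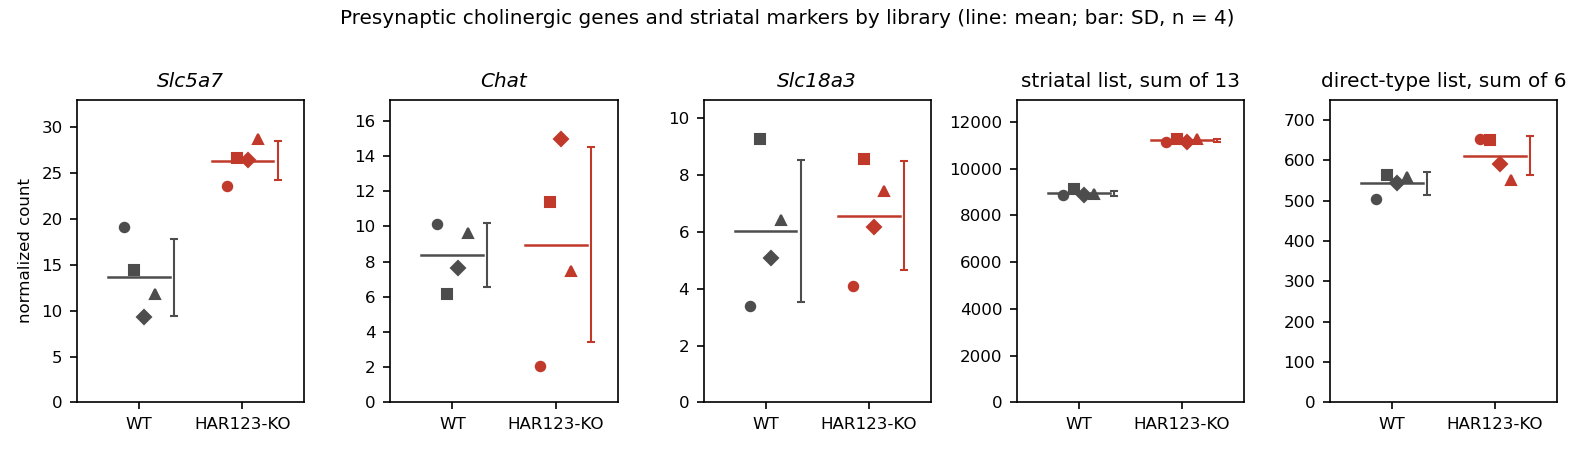
Normalized counts per library (y axes starting at 0) of Slc5a7, Chat and Slc18a3, and the sums of 13 shared striatal markers and of 6 markers of the direct type, in 4 WT and 4 HAR123-KO libraries, with the mean as a line and the SD as a bar. The genotypes separate for Slc5a7 and the shared striatal sum and overlap for Chat, Slc18a3 and the direct-type sum.

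None of the remaining cholinergic genes was called by DESeq2. Among those with an unadjusted DESeq2 p-value under 0.05, Kcnj9 (log2 fold change -0.20, DESeq2 adjusted p = 0.0653) and Kcnq3 (-0.11, adjusted p = 0.154) were lower in HAR123-KO. Kcnq5 (0.15, adjusted p = 0.230) and Plcb1 (0.07, adjusted p = 0.557) were higher, and the genotypes did not overlap for Plcb1. Lynx1, a membrane-anchored brake on nicotinic receptors, was at 1135 ± 33.9 normalized counts for WT and at 1163 ± 37.3 for HAR123-KO (SD, n = 4), a log2 difference of 0.04 ± 0.04 (SE) with a DESeq2 adjusted p-value of 0.922. Bche, butyrylcholinesterase, was at 19.8 ± 3.94 and 20.7 ± 7.25 (SD, n = 4), a log2 difference of 0.07 ± 0.30 (SE) with a DESeq2 adjusted p-value of 0.993. Of the 13 further receptor subunits none had an adjusted p-value. Chrnb3, the only one averaging at least 10 normalized counts, was at 8.08 ± 2.88 for WT and 13.2 ± 2.36 for HAR123-KO (SD, n = 4). Its log2 difference was 0.68 ± 0.41 (SE), and the genotypes overlapped. The fifth muscarinic receptor, Chrm5, had 0 to 3 raw counts per library, and Chrna9, Chrnd, Chrne and Chrng had 0 in all 8, which allows up to 3 of the 25435816 nuclear protein-coding counts (without Lars2) for each, by counting error alone. At this depth the absence of these subunits from the tissue cannot be told from a very low level.

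By shape over the 8 libraries, the genes closest to Chrna7 were found among 6584 genes averaging at least 100 normalized counts, by the root mean square distance of log2 levels centred on the WT mean. They were Cbfa2t3 at 0.080, Cnn3 at 0.098 and Aldh7a1 at 0.11. All 3 were lower in HAR123-KO by fitted log2 fold changes of -0.26, -0.23 and -0.26, and none passed the test (DESeq2 adjusted p = 0.586, 0.568 and 0.152). Nearness in this measure describes the 8 libraries only.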

How the data were processed

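RNA-seq was measured in 8 mouse frontal cortex libraries, 4 WT and 4 HAR123-KO, grouped by the genotype labels. Per the study's methods and the submitters' processing notes, the authors aligned reads with STAR 2.5.2b to GRCm38 and deposited raw counts per gene made with featureCounts. The handling of strand and of multiply mapped reads is not given in the sources used here. All 55536 identifiers matched GENCODE M21 with the same start and end, which supplied coordinates and exon lengths. Normalized counts are raw counts divided by median-of-ratios size factors. Genes were tested over the whole table with DESeq2 1.42.0 in R 4.3.3 (Wald test, genotype as the only term, Benjamini-Hochberg adjustment, independent filter tuned to 0.1), and a gene was called with an adjusted p-value under 0.05 and no minimum fold change. Chrna5 and Chat, which had no adjusted p-value, went through an exact permutation test, two-sided, of log2(normalized count + 1) over 70 assignments, whose smallest p is 0.0286.

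Alternatives were TMM factors, library totals and size factors from nuclear protein-coding genes, edgeR 4.0.16, limma-voom (limma 3.58.1), only genes with 10 or more counts in 4 libraries, the independent filter switched off, the study's limits (absolute log2 fold change over 0.5, or over 1 with an adjusted p-value under 0.01), a block for the replicate number, each library left out in turn, and pseudocounts of 0.1 and 5. The DESeq2, edgeR and limma-voom scripts were first tested on counts simulated for the genes of the table with known fold changes. The genes and lists were chosen with earlier results of these data known. Named are the 10 genes, every called gene of the other cholinergic list with Chrm5, Slc18a3, Slc5a7, Bche and Lynx1, marker genes that a result turns on, and the 3 genes most like the called member with the smallest p-value or, with none called, the member with the smallest p-value. Genes of the other cholinergic list with an unadjusted DESeq2 p-value under 0.05 are also named, as is Chrnb3. Of 109 marker genes, 107 had a row. Intervals cover counting error and the spread between libraries, and PCR copies carried no molecular tags.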

Additional observations from a re-analysis of the deposited data

Results flagged for a closer look

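Ache in WT replicate 4, at 174 normalized counts, stood apart from the other WT libraries, which lay between 143 and 147. It was the only one of 20 groups of 4 libraries (10 genes in 2 genotypes) in which the gap of the highest or lowest library to its neighbour, divided by the range, passed Dixon's 95% critical value, and chance gives about 1 in 20. WT replicate 4 was also the highest WT library for Chrm1 and Chrm3 and the lowest for Chrna4, Chrna5 and Chrnb2.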

How the results depend on the processing

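The count called among the 10 cholinergic genes was 0 in all 16 alternative fits and under both fold limits, over the 6 to 10 of them that had an adjusted p-value in a given fit (6 without HAR123-KO replicate 4). The count over all genes, 215, became 331 with edgeR, 22 with the replicate number as a block, 38 with an absolute log2 fold change over 0.5, 3 at the stricter limits and 133 to 185 when 1 library was left out (133 without WT replicate 1, 142 without HAR123-KO replicate 3). The other cholinergic genes called, 1, became 3 with edgeR or limma-voom (Gnao1, Slc5a7 and Kcnj9), 0 with library totals, the block or either fold limit, and 0 to 1 without single libraries. The replicate numbers name libraries only: deviations of same-numbered libraries correlated at -0.01, -0.00, 0.03 and -0.03, and 1 of 4 numbers was its own best match. Signs turned for values near 0 or on few reads: Chrm1 to 0.0051 with library totals (which shift the median of tested genes to 0.04), Chat to -0.052 with the block, and the Chrna5 difference to -0.0023 with a pseudocount of 5. Without single libraries the log2 fold change ran from -0.027 to 0.11 for Chrm3, -0.18 to 0.12 for Chrna5, -0.25 to 0.45 for Chat, -0.21 to 1.77 for Chrm5, -0.062 to 0.40 for Slc18a3 and -0.051 to 0.29 for Bche. It ran from -0.07 to -0.01 for Chrm1, -0.34 to -0.17 for Chrm2, 0.15 to 0.27 for Chrm4, -0.19 to -0.06 for Chrna4, -0.36 to -0.21 for Chrna7, 0.05 to 0.15 for Chrnb2, -0.14 to -0.05 for Ache and 0.02 to 0.05 for Lynx1 (0.07 with library totals), with no change of sign. With the block, Gnao1 kept -0.11 at an adjusted p-value of 1. Without HAR123-KO replicate 1, Chrm2 and Chrm4 had DESeq2 p-values of 0.0451 and 0.0488, with adjusted p-values of 0.643 and 0.658. The causes were not tested. Chat, Chrna5, Slc18a3 and Chrm5 had 0 to 17 raw counts per library.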
